A study of Homo sapiens with 14 samples.

Results

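HT-29, an established line from a human colorectal adenocarcinoma, was treated for 72 h with recombinant human TNF, at a dose the labels give as 100 ug/ml, together with 20 uM ferrostatin-1, and compared with HT-29 cells that received neither agent, kept in medium that held 0.1% DMSO. The labels give no culture time for the control and no DMSO content for the treated cells. Whether the groups were matched in these cannot be told. The combined treatment and the control had 3 libraries each, 6 of the 14 libraries of the study, and were chosen by their labels alone. The other groups used here for orientation were TNF alone and ferrostatin-1 alone, with 2 libraries each. Every group was of the same cell line, and the study asked why a pair of ferroptosis inhibitors act differently on cells dying under TNF. The design text describes the replicates as technical, so the p-values measure the spread between these libraries and no more. Of 36555 genes listed, 19595 had enough counts in the 6 libraries to be tested.

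TNF is a cytokine that binds the receptor TNFRSF1A and sets off the kinase cascade that frees the transcription factor NF-kB from its inhibitor. NF-kB then drives chemokines, adhesion molecules, survival genes and its own inhibitors, while a second branch of the same receptor complex can activate caspase-8 and apoptosis. Ferroptosis is an iron-dependent death through peroxidised membrane lipids. The selenoenzyme GPX4 holds it back with glutathione, made from cystine that enters through the transporter SLC7A11. Ferrostatin-1 is a synthetic aromatic amine that traps lipid radicals. Several aromatic compounds are known to bind the aryl hydrocarbon receptor (AHR), a ligand-activated transcription factor that induces cytochrome P450 genes.

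The combined-treatment libraries held 59913850 to 69214502 counts and the control libraries 73902221 to 74189938. Control library 2 stood apart from the other control libraries: on the second principal component, which held 14.5% of the variance, it lay at -27.9, against 4.6 and 20.1 for control libraries 1 and 3. The first component held 65.2% of the variance and separated the combined treatment from the control. Mitochondrially encoded transcripts took 4.48% to 4.83% of counts in the combined treatment and 5.5% to 6.06% in the control. A set of 26 genes, picked after their values were seen and without genes of the Y chromosome, differed by at least 4-fold between the 3 combined-treatment libraries with ferrostatin-1 library 3 and all libraries of control and TNF with ferrostatin-1 library 1. These genes therefore separated the 2 libraries of ferrostatin-1 alone, which carry the same label. KRT81, a hair keratin, had 1.47, 1.73 and 1.79 counts scaled to the size of its library (CPM) in the combined treatment, against 48.1, 47.6 and 48.4 CPM in the control. It had 57.0 and 1.45 CPM in ferrostatin-1 libraries 1 and 3. Why libraries of the same label differ in these genes was not tested. Results that rest on them are given with and without them.

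A gene was called where edgeR's quasi-likelihood test gave a Benjamini-Hochberg adjusted p below 0.05 over the 19595 genes. By this rule 4324 genes were called, 22.1% of those tested, of which 2022 (10.3%) were higher and 2302 (11.7%) lower in the combined treatment. Genes away from control level, called and changed at least 2-fold, numbered 637 higher (3.25%) and 524 lower (2.67%). Genes at control level, whose 95% interval of the fold change lay within 1.5-fold of the control, numbered 7990 (40.8%), and 1016 of them were nonetheless called. Another 8297 genes (42.3%) were neither called nor narrow enough to be placed. The placement followed abundance: the median of the mean CPM was 45.1 for genes at control level, 3.69 for genes away from it and 0.61 for the genes that could not be placed. Without the 26 genes that separate libraries across treatments, 636 genes were away higher and 499 away lower. The number called depended on single libraries: it was 2402 without control library 1, 6151 without control library 2, and 2583, 2632 and 2650 without combined-treatment library 1, 2 or 3.

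**Figure D1:**
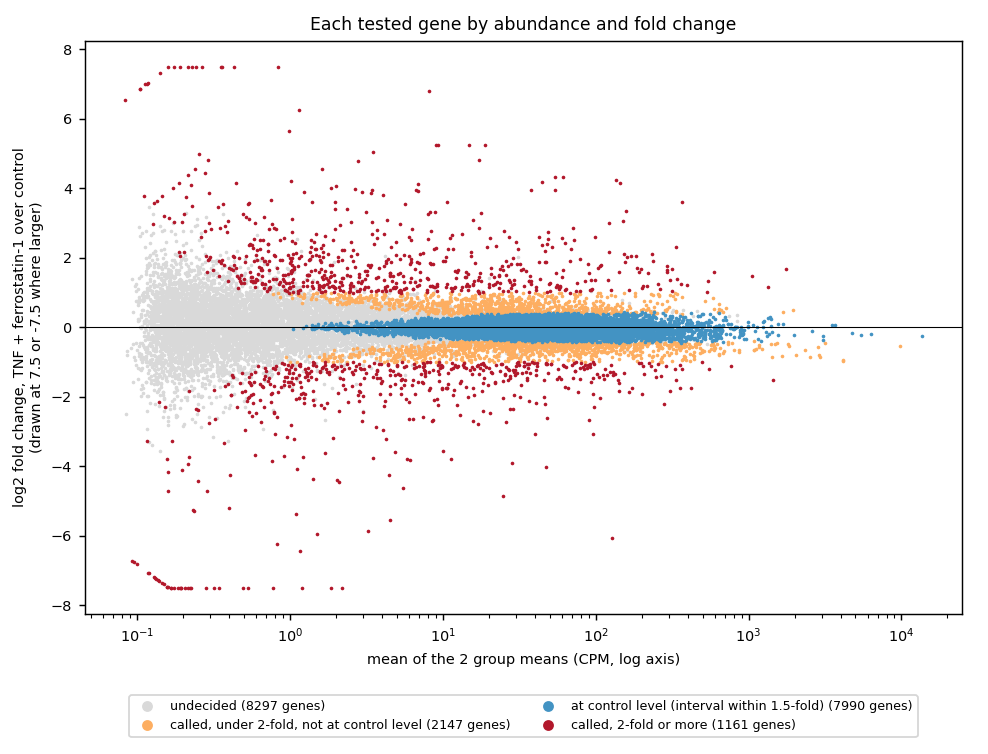
Fold change of each of the 19595 tested genes (vertical axis, log2 of TNF plus ferrostatin-1 over control) against its mean level (horizontal log axis, CPM), coloured by its placement. The 7990 genes at control level have a median of 45.1 CPM, and the 1161 genes away from control level a median of 3.69 CPM.

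Genes of the NF-kB response stayed far above control level. Of 41 tested targets and feedback inhibitors of NF-kB, 30 were called higher and 2 lower, with a median log2 fold change of 1.04 against -0.003 over all tested genes. TNFAIP3, which encodes the ubiquitin-editing inhibitor A20, had 113, 114 and 122 CPM in the combined treatment, against 5.82, 5.75 and 5.81 CPM in the control. The groups were far apart and the 3 libraries of each lay close together. Its log2 fold change was 4.33 ± 0.067 (SE), with an adjusted p of 4.6e-08. NFKBIA, the inhibitor that holds NF-kB in the cytoplasm, had 168, 169 and 169 CPM in the combined treatment and 29.7, 27.7 and 26.3 CPM in the control, a log2 fold change of 2.60 ± 0.067. BIRC3, a ubiquitin ligase of the TNF receptor complex that protects from apoptosis, averaged 259 ± 12.4 CPM in the combined treatment and 13.7 ± 2.45 CPM in the control (SD, n = 3 each). ICAM1, an adhesion receptor for leukocytes, was higher by a log2 fold change of 3.00 ± 0.085, and IL32, a cytokine of epithelial and immune cells, by 4.20 ± 0.10.

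The promoter of TNFAIP3 is shown because this gene had the lowest adjusted p of the whole comparison. The 250 bases before the start of transcription are from RefSeq on build GRCh38.p14 (chr6:137867009-137867258, plus strand). Capitals mark the stretches that match a loose form of the NF-kB site on either strand, with overlapping matches joined.
TNFAIP3: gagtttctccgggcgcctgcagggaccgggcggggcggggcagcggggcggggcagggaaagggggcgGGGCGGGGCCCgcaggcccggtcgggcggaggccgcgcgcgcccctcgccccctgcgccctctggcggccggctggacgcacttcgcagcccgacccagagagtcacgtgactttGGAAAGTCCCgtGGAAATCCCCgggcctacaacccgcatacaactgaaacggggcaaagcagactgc
This motif was found in 38 of 38 genes of the NF-kB list that had a promoter. It is so loose that 75.2% of the 12020 tested genes with a promoter and 57.8% of all 27305 genes with one also held it. Here and below a gene was counted where any of its promoters matched, so genes with several start sites had more chances to match.

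Not every gene of the NF-kB list stayed up. RELA, which encodes an NF-kB subunit, had 139, 133 and 142 CPM in the combined treatment, against 151, 120 and 176 CPM in the control, and lay at control level. IER3, an early-response gene, had 145, 147 and 147 CPM in the combined treatment and 169, 110 and 174 CPM in the control. The combined-treatment libraries lay inside the range of the control, whose library 2 was the low one in both genes. Without control library 2 both were still within 1.5-fold but were called lower, with log2 fold changes of -0.24 for RELA and -0.22 for IER3.

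Cytokines and chemokines were mostly higher, with 15 of 28 tested genes called higher, 1 called lower and a median log2 fold change of 0.94. The cells' own TNF transcript, which the added protein does not contain, had 17.7, 17.5 and 19.3 CPM in the combined treatment and 0.661, 0.531 and 0.226 CPM in the control. CXCL8, a neutrophil attractant, had 102, 107 and 101 CPM in the combined treatment, against 5.31, 4.57 and 5.40 CPM in the control. Its log2 fold change was 4.34 ± 0.083, with an adjusted p of 9.2e-08. CXCL10, a T cell attractant induced by interferon, was higher by a log2 fold change of 3.61 ± 0.23. LTB, which encodes the membrane anchor of lymphotoxin, was higher by 5.26 ± 0.14, with 33.3 to 43.9 CPM in the combined treatment and 0.934 to 1.01 CPM in the control. The 1 gene called lower, the neutrophil attractant CXCL5, was among the genes that separate libraries across treatments: it had no count in any combined-treatment library and 4.95, 4.23 and 4.03 CPM in the control, at least 291-fold lower against a floor of 3 counts over the group. It had 4.49 and 0 CPM in ferrostatin-1 libraries 1 and 3.

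Interferon-stimulated genes and genes of antigen presentation by major histocompatibility complex (MHC) class I moved up nearly as a block. Of 55 tested interferon-stimulated genes 46 were called higher and none lower, with a median log2 fold change of 1.34, and 35 of them were away from control level. Of 21 tested class I and immunoproteasome genes 20 were called higher and none lower. HLA-B, a class I heavy chain, had 722, 710 and 612 CPM in the combined treatment and 56.7, 55.8 and 54.7 CPM in the control, a log2 fold change of 3.61 ± 0.078 with an adjusted p of 1.3e-07. B2M, the class I light chain, had 2756, 2890 and 2351 CPM in the combined treatment, against 834, 875 and 779 CPM in the control. In both genes the groups were well separated. TAP1, which carries peptides into the endoplasmic reticulum, was higher by a log2 fold change of 2.04 ± 0.083, and the immunoproteasome subunit PSMB9 by 2.37 ± 0.10. TRIM22, an antiviral ubiquitin ligase, was higher by 3.95 ± 0.12, and IFITM1, a membrane protein that blocks viral entry, by 3.34 ± 0.068. HLA genes resemble each other closely, so reads could be shared among them.

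GBP3, an interferon-induced GTPase, lay at control level with 35.5, 37.6 and 34.8 CPM in the combined treatment and 38.7, 30.5 and 41.7 CPM in the control. Its relative GBP4 had 35.2, 33.2 and 28.5 CPM in the combined treatment, against 4.02, 2.59 and 3.25 CPM in the control, and rose by a log2 fold change of 3.30 ± 0.16. Genes of the MHC class II pathway were mixed, with 3 of 11 called higher and 2 lower. CD74, the invariant chain of class II, averaged 85 ± 5.91 CPM in the combined treatment and 12.6 ± 0.834 CPM in the control (SD, n = 3 each). HLA-DMB, a class II peptide editor, was lower, with 1.18, 0.470 and 0.346 CPM in the combined treatment and 3.12, 3.77 and 3.59 CPM in the control.

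The promoter of CXCL10, a gene of the chemokine list that interferon also induces, is printed as an example of the interferon-type motif, from the same source (chr4:76023498-76023747, minus strand), with capitals at the match to the core of the interferon-stimulated response element, searched on both strands.
CXCL10: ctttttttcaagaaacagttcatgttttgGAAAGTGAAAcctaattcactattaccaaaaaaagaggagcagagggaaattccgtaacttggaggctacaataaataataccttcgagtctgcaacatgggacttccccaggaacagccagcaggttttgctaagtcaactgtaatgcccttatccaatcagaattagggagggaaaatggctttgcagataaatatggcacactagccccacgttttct
Of genes with a promoter, 27 of 41 in the interferon list (65.9%) and 8 of 18 in the class I list (44.4%) held this motif. It was held by 3.34% of tested genes with a promoter and 3.71% of all genes with one. Among genes away from control level and higher, 46 of 370 with a promoter held it (12.4%), and among genes at control level 2.88%. A match describes the letters and says nothing about binding.

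**Figure D2:**
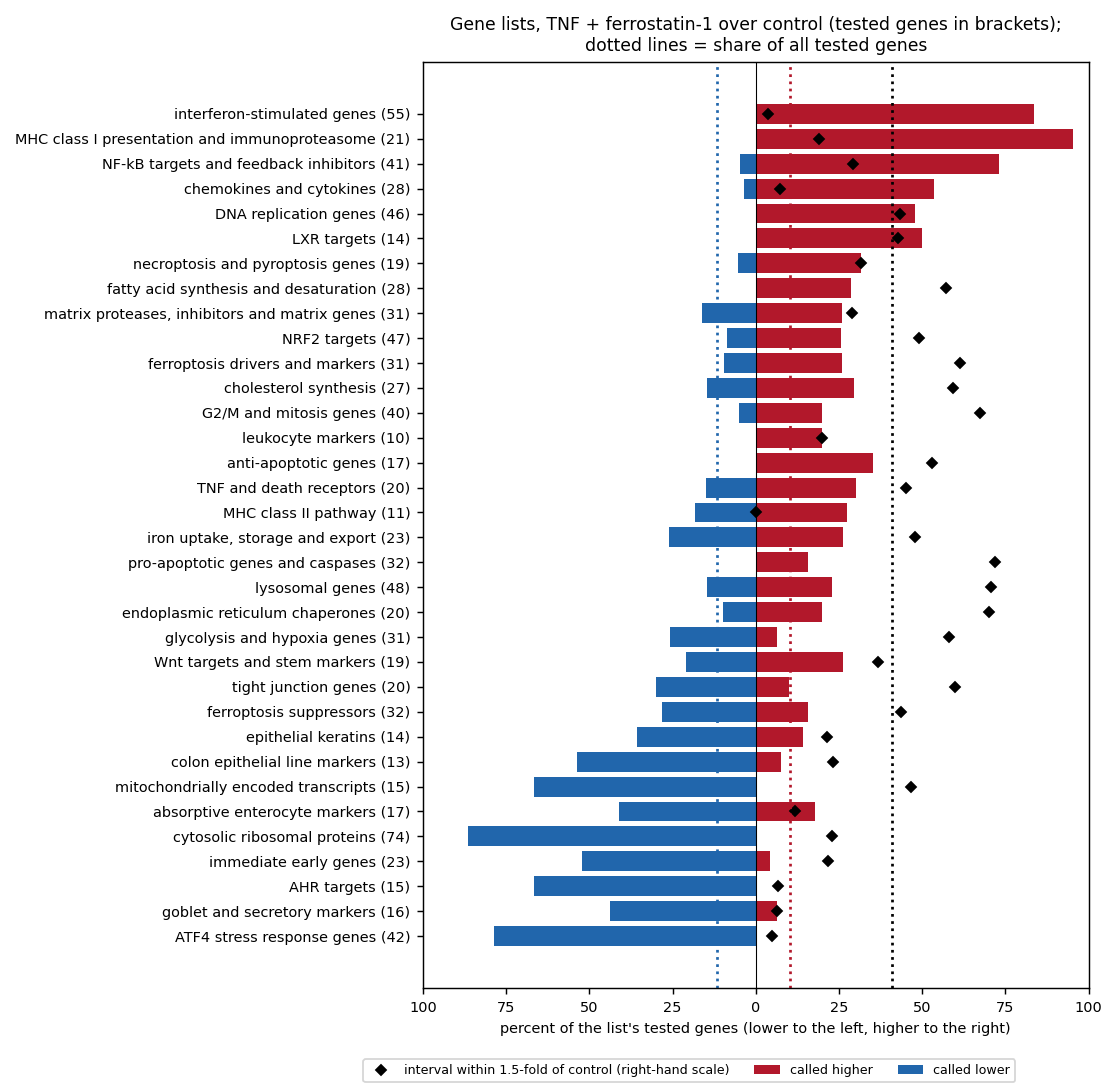
Share of each gene list's tested genes that were called higher (red, to the right) or lower (blue, to the left) in TNF plus ferrostatin-1 over control, with diamonds for the share at control level. Dotted lines give the shares over all tested genes, 10.3% higher, 11.7% lower and 40.8% at control level.

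Lists of the cell-death machinery differed in how many genes lay at control level, against 40.8% over all tested genes. That base includes the 8297 genes that could not be placed, with a median of 0.61 CPM. The lists were not matched to it in abundance. Of 32 tested pro-apoptotic genes and caspases 23 were at control level, 5 were called higher and none lower. The number higher was 8 without control library 2 and 3 without control library 1. In this list 1 gene was called lower without control library 2 and 1 with DESeq2. CASP8, the caspase that TNF receptor complexes activate, had 61.6, 65.9 and 62.5 CPM in the combined treatment and 62.0, 56.8 and 65.8 CPM in the control. Of 17 anti-apoptotic genes 9 lay at control level, 6 were called higher and none lower, but 2 were called lower without control library 2 and 2 with DESeq2. Of 19 genes of necroptosis and pyroptosis 6 lay at control level, 6 were called higher and 1 lower. MCL1, a survival protein of the BCL2 family, had a log2 fold change of -0.01, with a 95% interval inside the 1.5-fold band. In the pro-apoptotic list 2 genes were away from control level. They were CASP1, the inflammasome caspase, at a log2 fold change of 2.26 ± 0.25, and BID, which links caspase-8 to mitochondria, at 1.04 ± 0.076. In the anti-apoptotic list 2 were away higher, and in the list of necroptosis and pyroptosis 3 higher and 1 lower. Over all tested genes 3.25% were away higher and 2.67% lower. CFLAR, the caspase-8 inhibitor, was called higher but stayed within 1.5-fold, at 0.35 ± 0.063. Among 20 TNF and death receptor genes 6 were called higher and 3 lower, the 3 becoming 1 in each of the 5 fits without a library other than control library 2. TNFSF10, the death ligand TRAIL, was higher by 2.01 ± 0.091, whereas the receptors LTBR and TNFRSF21 lay at control level. LTBR was called lower within the band without control library 2 (log2 fold change -0.38, adjusted p = 0.0022) and with DESeq2 (adjusted p = 0.023), and TNFRSF21 left the band in 4 of 13 alternative settings. TNFRSF1A itself had 110, 111 and 114 CPM in the combined treatment, against 159, 123 and 177 CPM in the control. Its call, at a log2 fold change of -0.45 ± 0.12 with an adjusted p of 0.03, was lost in 5 of the 6 fits without 1 library and held without control library 2. ZBP1, a nucleic acid sensor of necroptosis, rose by 2.70 ± 0.33, and CYLD, a deubiquitinase of the TNF complex, by 1.04 ± 0.092.

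Many targets of AHR stayed below control level. Of 15 tested targets 10 were called lower and none higher, with a median log2 fold change of -0.55. When 1 library was left out, 7 to 10 were called lower. Without control library 2, 2 were called higher, and with DESeq2 1 was. In the model of 14 libraries, TNF alone had 3 of 16 targets called lower and 1 higher (median -0.07). Ferrostatin-1 alone had 3 of 16 called lower and none higher (median -0.27). One of the 10, SERPINB2, an inhibitor of plasminogen activators, was among the genes that separate libraries across treatments. CYP1A1, the cytochrome P450 that serves as the standard readout of AHR, had 5.04, 5.67 and 6.03 CPM in the combined treatment, against 89.6, 114 and 65.1 CPM in the control. Every combined-treatment library lay far below every control library. Its log2 fold change was -4.00 ± 0.19, with an adjusted p of 7.8e-06. It had 106 and 76.4 CPM in the TNF libraries and 5.94 and 6.71 CPM in the ferrostatin-1 libraries. CYP1B1, a related cytochrome P450, had 61.7, 61.5 and 63.4 CPM in the combined treatment and 159, 171 and 150 CPM in the control. ALDH1A3, a retinaldehyde dehydrogenase, had 74.7, 77.3 and 74.1 CPM in the combined treatment, against 194, 164 and 192 CPM in the control, and 74.7 and 68.0 CPM with ferrostatin-1 alone. CYP2S1, another member of the family, was lower by a log2 fold change of -1.09 ± 0.076. The values of the 3 treatments share the control libraries: the log2 fold change of CYP1A1 over control was -4.00 in the combined treatment, 0.02 in TNF alone and -3.82 in ferrostatin-1 alone. Over all 22216 genes of that model, 14.6% were called in TNF and 0.563% in ferrostatin-1 against control, 5.51% between the combined treatment and TNF, and 18.1% between the combined treatment and ferrostatin-1. Tested directly, CYP1A1 was lower in the combined treatment than in TNF, by a log2 difference of -4.03 (adjusted p = 3.4e-06). The log2 difference from ferrostatin-1 was -0.18 (adjusted p = 0.63), with a 95% interval of -0.64 to 0.28. UGT1A1, a glucuronosyltransferase, was the 1 AHR target at control level.

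CYP1A1 had the largest fall of the AHR list, and its promoter on the same build (chr15:74725529-74725778, minus strand) is shown with capitals at the match to GCGTG, the core of the AHR response element, searched on both strands.
CYP1A1: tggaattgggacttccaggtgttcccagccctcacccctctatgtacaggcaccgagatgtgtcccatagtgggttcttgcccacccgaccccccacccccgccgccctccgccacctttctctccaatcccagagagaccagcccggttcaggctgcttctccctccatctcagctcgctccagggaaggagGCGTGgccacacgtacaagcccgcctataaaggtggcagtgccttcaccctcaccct
GCGTG was found for 9 of 15 AHR list genes with a promoter (60.0%) and 51.0% of tested genes with one, so its frequency there was near the background.

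**Figure D3:**
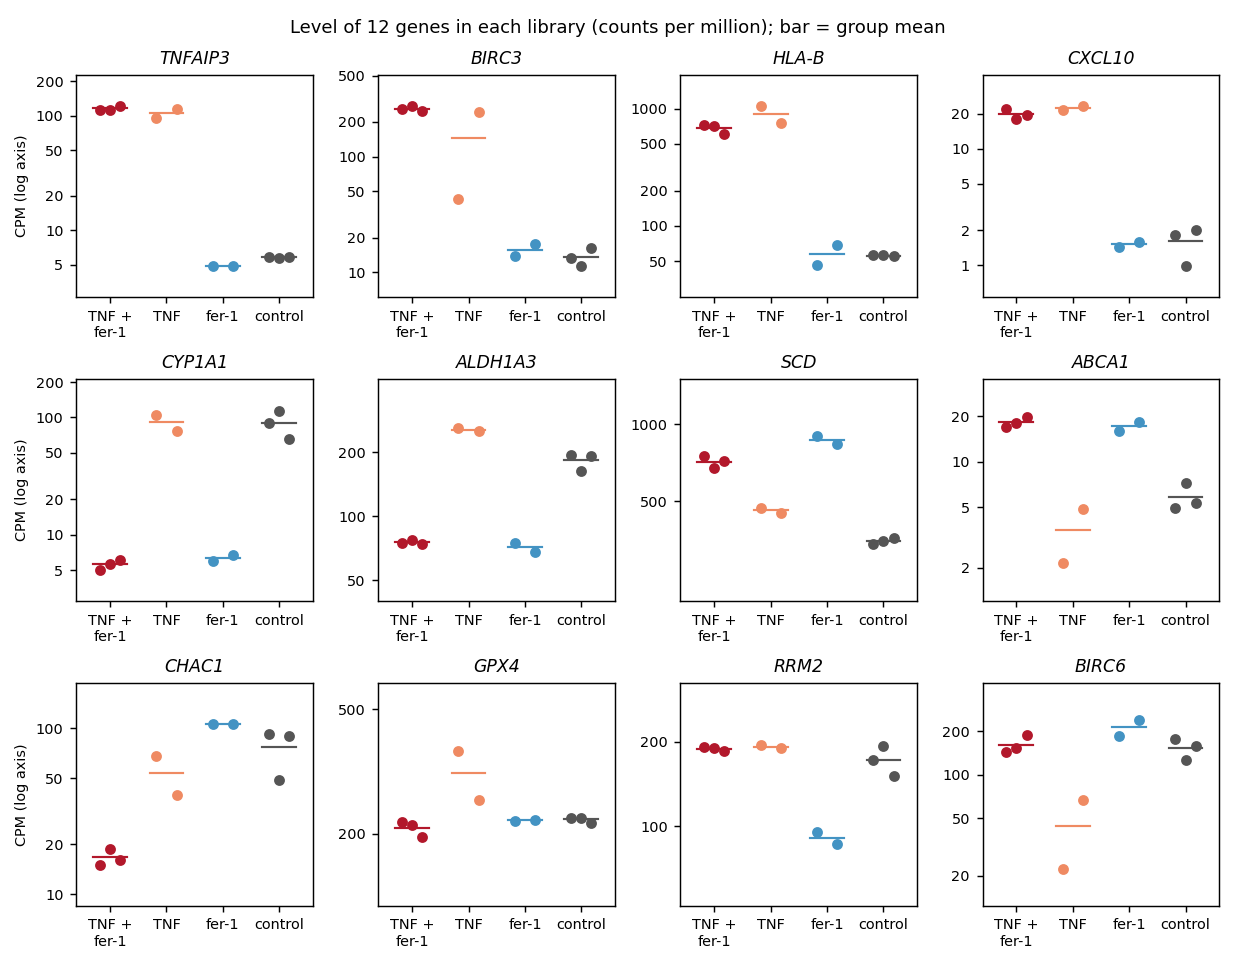
CPM of 12 genes in each library (log axis), with TNF plus ferrostatin-1 at the left, then TNF, ferrostatin-1 and control, and a bar at each group mean. TNFAIP3 and HLA-B lie high in both groups with TNF, CYP1A1 lies low in both groups with ferrostatin-1, and RRM2 is low in ferrostatin-1 alone.

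Some genes of lipid handling were above control level in the combined treatment. Of 28 genes of fatty acid synthesis and desaturation 8 were called higher, none lower and 16 lay at control level. Of 27 genes of cholesterol synthesis 8 were called higher, 4 lower and 16 lay at control level, and the number higher was 2 without control library 1 and 13 without control library 2. SCD, the desaturase that makes monounsaturated fatty acids, had 747, 675 and 719 CPM in the combined treatment and 341, 350 and 359 CPM in the control, a log2 fold change of 1.03 ± 0.067 with an adjusted p of 2.9e-05. Its log2 fold change over the same control libraries was 0.40 in TNF and 1.31 in ferrostatin-1. ABCA1, a cholesterol exporter and target of the liver X receptors (LXR), had 16.8, 18.04 and 19.7 CPM in the combined treatment, against 4.95, 7.25 and 5.38 CPM in the control. It had 2.14 and 4.90 CPM with TNF alone and 16.1 and 18.2 CPM with ferrostatin-1 alone. Of 14 tested LXR targets 7 were called higher and none lower, a count that ranged from 4 to 7 when 1 library was left out and was 4 without control library 1 or combined-treatment library 1 or 3. AKR1C1, an aldo-keto reductase and target of the oxidant-response factor NRF2, had 60.2, 90.8 and 72.7 CPM in the combined treatment and 22.5, 14.4 and 23.6 CPM in the control, although AKR1C genes are near-identical and could share reads. Both TNC and ACSL1 were called higher in each single treatment as well. The matrix protein TNC had 21.1, 16.7 and 19.6 CPM in the combined treatment and 2.84, 1.81 and 4.92 CPM in the control. ACSL1, which activates fatty acids, rose by 1.34 ± 0.078 in the combined treatment. By contrast, MT2A, a metal-binding metallothionein, rose by 1.51 ± 0.096 and was called with TNF alone but not with ferrostatin-1 alone (adjusted p = 0.056), a difference that was not tested, and 4 of 7 genes of the metallothionein list were called higher.

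NRF2 targets as a list were not uniform. Of 47 tested, 12 were called higher, 4 lower and 23 lay at control level, and without control library 2 the numbers were 18 higher and 7 lower. AKR1B10, an aldo-keto reductase, had 84.8, 87.1 and 78.0 CPM in the combined treatment and 93.5, 75.0 and 93.5 CPM in the control, and so lay at control level. It was lower with TNF alone, at 40.2 and 32.3 CPM, and higher with ferrostatin-1 alone, at 191 and 182 CPM. NQO1, a quinone reductase, was lower by a log2 fold change of -0.55 ± 0.075, and HMOX1, which degrades heme, had 11.1, 17.5 and 19.3 CPM in the combined treatment and 20.6, 23.5 and 25.0 CPM in the control without being called (adjusted p = 0.085). HMOX1 was called lower with DESeq2 (log2 fold change -0.53, adjusted p = 0.024) and with the replicate number as a block (-0.56, adjusted p = 0.033).

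Among genes of ferroptosis, GPX4, AIFM2, ACSL4 and FTH1 lay at control level, while SLC7A11 and CHAC1 lay below it. GPX4 had 218, 213 and 195 CPM in the combined treatment, against 225, 225 and 217 CPM in the control. Its log2 fold change was -0.09 ± 0.067, with a 95% interval of -0.25 to 0.06. AIFM2, which encodes the ubiquinone reductase FSP1, had 65.6, 67.9 and 63.4 CPM in the combined treatment and 77.1, 56.3 and 80.4 CPM in the control, and was called lower only without control library 2. ACSL4, which loads polyunsaturated fatty acids into lipids, had 67.5, 62.6 and 63.8 CPM in the combined treatment and 60.1, 59.4 and 62.2 CPM in the control. Its interval stayed within the 1.5-fold band in 12 of 13 alternative settings, the exception being the model of all 14 libraries. FTH1, the ferritin heavy chain that stores iron, had 4243, 4790 and 4549 CPM in the combined treatment and 4984, 4001 and 6107 CPM in the control. The ferritin light chain FTL, the transporter subunit SLC3A2 and the iron exporter SLC40A1 were called lower. Their log2 fold changes were -0.49, -0.73 and -0.78. They were among 9 of 32 suppressors called lower, against 5 called higher. SLC7A11, the cystine transporter, had 110, 138 and 132 CPM in the combined treatment, against 283, 184 and 304 CPM in the control, a log2 fold change of -1.02 ± 0.18 with an adjusted p of 0.0047. CHAC1, which degrades glutathione and marks cystine shortage, had 15.1, 18.8 and 16.2 CPM in the combined treatment and 91.8, 48.9 and 89.4 CPM in the control, a log2 fold change of -2.20 ± 0.22. In both genes control library 2 was the lowest control and still lay above every combined-treatment library. BACH1, a repressor of NRF2 targets, had 120, 130 and 128 CPM in the combined treatment and 63.6, 43.9 and 71.4 CPM in the control.

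Over the whole lists, 5 of 32 ferroptosis suppressors were called higher and 9 lower, 14 lay at control level, a share near that over all genes, and the median log2 fold change was -0.11. Without control library 1 or combined-treatment library 3 the numbers were 3 higher and 4 lower. Of 31 drivers and markers 8 were called higher, 3 lower and 19 lay at control level, and the number higher ranged from 3 to 12 when 1 library was left out, with 12 without control library 2, 4 without combined-treatment library 1 or 2, and 3 without control library 1 or combined-treatment library 3. TFRC, the transferrin receptor that takes up iron, had 253, 266 and 254 CPM in the combined treatment, against 206, 237 and 193 CPM in the control, and its call at an adjusted p of 0.044 was lost in 5 of the 6 fits without 1 library. PTGS2, a cyclooxygenase often read as a ferroptosis marker, had 10.998, 12.5 and 12.8 CPM in the combined treatment and 11.1, 6.12 and 14.6 CPM in the control, too wide a spread to place it.

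**Figure D4:**
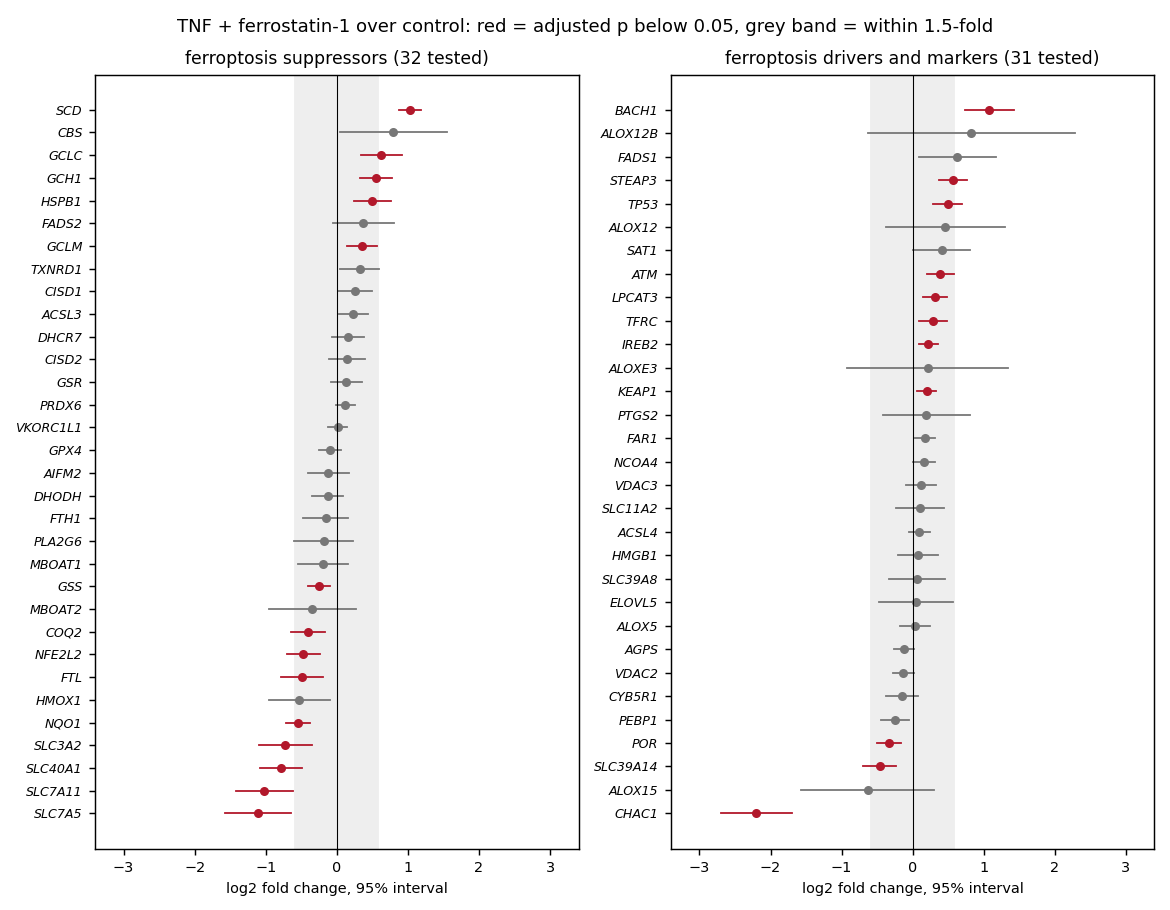
Log2 fold change of TNF plus ferrostatin-1 over control with its 95% interval for 32 suppressors (left) and 31 drivers and markers (right) of ferroptosis. Red marks an adjusted p below 0.05 and the grey band spans 1.5-fold either way, with GPX4 and ACSL4 inside the band and SLC7A11 and CHAC1 below it.

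The amino acid and stress programme of the transcription factor ATF4 lay below control level. Of 42 tested genes 33 were called lower and none higher, with a median log2 fold change of -0.89, and 15 were away from control level. When 1 library was left out, 26 to 38 were called lower and 0 to 2 higher. ATF4 itself had 317, 365 and 319 CPM in the combined treatment, against 840, 636 and 823 CPM in the control, a log2 fold change of -1.20 ± 0.11 with an adjusted p of 0.00024. PSPH, an enzyme of serine synthesis, was lower by -0.79 ± 0.064 and the amino acid transporter SLC1A4 by -0.97 ± 0.11. SLC38A2, another amino acid transporter of this list, stayed at control level with 280, 306 and 289 CPM in the combined treatment and 336, 257 and 360 CPM in the control. Control library 2 was the low one, and without it SLC38A2 was called lower within the band (log2 fold change -0.26, adjusted p = 0.017). Its interval left the 1.5-fold band in the model of 14 libraries. With TNF alone, where 14.6% of all genes were called, 11 of 43 genes of this list were called lower and 1 higher. Their median log2 fold change was -0.54. With ferrostatin-1 alone none of them was called, and the median was 0.37. Over the same control libraries the log2 fold change of ATF4 itself was -1.20 in the combined treatment, -0.06 in TNF and 0.17 in ferrostatin-1. The direct difference of ATF4 between the combined treatment and TNF was -1.14 (adjusted p = 0.01), although the 2 TNF libraries themselves differed, at 916 and 552 CPM.

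Ribosomal protein genes were lower by less than 2-fold, and many immediate early genes were lower as well. Of 74 tested cytosolic ribosomal proteins 64 were called lower, none higher and none by 2-fold, with a median log2 fold change of -0.48, and 17 lay at control level. The number lower was 42 without control library 1 and 46 and 48 without combined-treatment libraries 1 and 3. RPL3, a protein of the large subunit, had 1031, 1048 and 984 CPM in the combined treatment and 1914, 1873 and 1753 CPM in the control. Of 15 mitochondrially encoded transcripts 10 were called lower, with MT-CYB, a subunit of complex III, at -0.95 ± 0.086 and MT-ND5, a subunit of complex I, at control level. Of 23 immediate early genes 12 were called lower and 1 higher, a count of lower genes that was 18 without control library 2 and 7 without control library 1 or combined-treatment library 1. FOS had 13.1, 12.8 and 15.2 CPM in the combined treatment, against 67.0, 51.2 and 59.3 CPM in the control. MYC, in contrast, lay at control level with 280, 260 and 278 CPM in the combined treatment and 295, 245 and 300 CPM in the control.

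Several epithelial genes were lower, while KRT8 lay at control level. CLDN2, the pore-forming tight junction protein, had 8.72, 8.30 and 8.56 CPM in the combined treatment and 63.0, 102 and 49.8 CPM in the control, a log2 fold change of -3.07 ± 0.23. Its log2 fold change over the same control libraries was -2.56 in TNF and -1.79 in ferrostatin-1. CLDN4, a sealing claudin, had 515, 517 and 512 CPM in the combined treatment, against 479, 494 and 471 CPM in the control, and lay at control level. Of 20 tight junction genes 12 lay at control level, 6 were called lower and 2 higher. Over all tested genes the shares were 40.8%, 11.7% and 10.3%. The number lower ranged from 4 to 8 when 1 library was left out. AGR2, a disulfide isomerase of secretory cells, had 35.3, 48.4 and 41.2 CPM in the combined treatment and 110, 120 and 122 CPM in the control. LGALS4, a galectin of the intestine, had 153, 174 and 161 CPM in the combined treatment, against 592, 447 and 595 CPM in the control. Of 16 goblet and secretory markers 7 were called lower and 1 higher. KRT8, a keratin of simple epithelia, had 5338, 5015 and 4787 CPM in the combined treatment and 5778, 6398 and 5506 CPM in the control and lay at control level. Every combined-treatment library still lay below every control library. KRT8 was called lower within the band, at a log2 fold change of -0.22, with DESeq2 (adjusted p = 0.038) and with a stricter filter on low counts (adjusted p = 0.046). CEACAM5, the carcinoembryonic antigen, went the other way, with 7.25, 6.39 and 6.37 CPM in the combined treatment and 2.42, 2.97 and 3.76 CPM in the control.

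Markers of the colon epithelial line summed to 8879 to 9686 CPM in the combined treatment and 11041 to 11736 CPM in the control, and 7 of 13 were called lower and 1 higher. In these bulk libraries fewer cells of a kind and less RNA per cell cannot be told apart. The leukocyte marker ITGAM, an integrin of myeloid cells, had 18.7, 17.0 and 17.4 CPM in the combined treatment, against 0.495, 0.438 and 0.467 CPM in the control. Leukocyte markers summed to 1040 to 1192 CPM in the combined treatment and 849 to 1127 CPM in the control, nearly all of it LYZ, and 2 of 10 were called higher. PTPRC, which defines leukocytes, had no count in the combined treatment and at most 0.0551 CPM in the control, and FCER1G was at 0 in all 6 libraries. Fibroblast and endothelial markers summed to 17.6 to 55.4 CPM in the combined treatment and 13.3 to 40.6 CPM in the control. The part of other cell types in the results above was not tested.

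Among the 14 falls reported for their size, 8 were genes that separate libraries across treatments, so that ferrostatin-1 libraries 1 and 3 disagreed on them. BEST1, a chloride channel, had 6.66, 2.85 and 1.92 CPM in the combined treatment, against 235, 201 and 316 CPM in the control. The falls outside that set included ADH6, an alcohol dehydrogenase, with 0.288, 0.111 and 0.157 CPM in the combined treatment and 3.48, 5.23 and 3.00 CPM in the control, and CD200, a surface glycoprotein, with 0.624, 0.207 and 0.472 CPM in the combined treatment and 9.58, 13.1 and 9.28 CPM in the control. Both were also lower with TNF alone, by log2 fold changes of -5.99 and -3.51 over the same control libraries. The transcript AC132217 rested on control library 1, which had 10.5 CPM, against 0.173 and 0.453 CPM in control libraries 2 and 3 and none in the combined treatment. The rises named for their size included UBD, a ubiquitin-like modifier, with 33.3, 28.1 and 25.2 CPM in the combined treatment and 0.688, 0.956 and 0.608 CPM in the control. IL4I1, an amino acid oxidase, had 36.6, 30.5 and 33.3 CPM in the combined treatment and 0.839, 1.59 and 1.09 CPM in the control. MEFV, which encodes pyrin, had 1.86, 1.54 and 1.59 CPM in the combined treatment and no count in the control, at least 121-fold higher against a floor of 3 counts over the group. TNFRSF6B, a decoy receptor, rose by a log2 fold change of 4.55 ± 0.24.

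With TNF alone 2.75% of genes were called higher and 2.86% lower at 2-fold. Of these, 222 lay at control level in the combined treatment, where 40.8% of all tested genes lay. The 10 named by rule were all below control with TNF. In the model of 14 libraries, which gave the TNF calls, the wider intervals of 9 of these 10 genes reached outside the 1.5-fold band in the combined treatment, BIRC6 and RANBP2 among them. BIRC6, a very large ubiquitin-conjugating enzyme, had 143, 154 and 187 CPM in the combined treatment and 177, 126 and 158 CPM in the control, with a log2 fold change of 0.07 ± 0.14. It had 22.4 and 66.7 CPM in TNF libraries 1 and 3. RANBP2, a nuclear pore protein, had 111, 125 and 153 CPM in the combined treatment, against 166, 120 and 150 CPM in the control, and 14.3 and 55.6 CPM in the TNF libraries. In both genes TNF library 1 was the lowest by far. The longest GENCODE transcripts of these 10 genes had a median of 10415 bases, against 2933 bases over 19297 tested genes. In the 1483 genes with the longest transcripts among those with a mean count of at least 50 the median log2 difference from the control mean was -0.59 in TNF library 1 and -0.1 in TNF library 3, but -0.03, -0.02 and 0.06 in the combined-treatment libraries. The part of transcript length in the TNF values was not tested. MKI67, a proliferation marker, had 304, 274 and 371 CPM in the combined treatment and 376, 311 and 334 CPM in the control, and 163 and 184 CPM in the TNF libraries.

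With ferrostatin-1 alone 0.081% of genes were called higher and 0.131% lower at 2-fold. Genes called at 2-fold with ferrostatin-1 alone and at control level in the combined treatment were 6: AKR1B10, GINS2, STMN1, NRM, E2F8 and TCF19, of which all but AKR1B10 were lower with ferrostatin-1. E2F8 and TCF19 each left the 1.5-fold band in 5 of 13 alternative settings. E2F8 was called higher without control library 2 (log2 fold change 0.40, adjusted p = 0.025), and TCF19 was called lower without control library 3 (-0.42, adjusted p = 0.0097) and with DESeq2 (adjusted p = 0.021). NRM, a nuclear membrane protein, had 25.5, 26.5 and 26.7 CPM in the combined treatment, against 21.6, 30.2 and 19.9 CPM in the control, and 8.87 and 9.03 CPM with ferrostatin-1 alone. STMN1, a microtubule regulator of dividing cells, had 198, 198 and 184 CPM in the combined treatment and 165, 262 and 151 CPM in the control, and 99.0 and 82.1 CPM with ferrostatin-1 alone. RRM2, the small subunit of ribonucleotide reductase, had 192, 191 and 185 CPM in the combined treatment, against 173, 193 and 151 CPM in the control, and 95.2 and 86.7 CPM with ferrostatin-1. MCM5, a subunit of the replicative helicase, had 137, 122 and 135 CPM in the combined treatment and 109, 135 and 96.7 CPM in the control. Control library 2 was the highest control in all 4 genes, and without it each was called higher in the combined treatment, at log2 fold changes of 0.34, 0.29, 0.22 and 0.36 for NRM, STMN1, RRM2 and MCM5. Tested directly, the combined treatment exceeded ferrostatin-1 alone by 1.06 for RRM2 (adjusted p = 4.7e-05) and 1.55 for NRM (adjusted p = 7e-05), on the log2 scale.

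As a list, DNA replication genes lay at or slightly above control level. Of 46 tested genes 22 were called higher, none lower and none by 2-fold, 20 lay at control level and the median log2 fold change was 0.35. The count of higher genes was 35 without control library 2, 8 without control library 1, and 11, 13 and 14 without combined-treatment libraries 1, 2 and 3, so it rested on which libraries were used. With ferrostatin-1 alone 16 of 46 were called lower and none higher, against 0.378% called lower over all genes, with a median of -0.68 over the same control libraries. PCNA, the polymerase clamp, had 315, 325 and 299 CPM in the combined treatment and 180, 225 and 167 CPM in the control. MCM3, another helicase subunit, had 271, 259 and 257 CPM in the combined treatment, against 176, 200 and 156 CPM in the control. In both genes every combined-treatment library lay above every control library. Of 40 genes of G2 and mitosis 27 lay at control level, 8 were called higher and 2 lower. The shares over all tested genes were 40.8%, 10.3% and 11.7%. The number higher was 27 without control library 2 and 0 without control library 1 or combined-treatment library 2 or 3. It was 2 without control library 3 or combined-treatment library 1. The number lower ranged from 1 to 3 when 1 library was left out.

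The promoter of MCM3 on build GRCh38.p14 (chr6:52284743-52284992, minus strand) is printed as an example of a gene of the replication list that rose and holds the motif. MCM10, a replication factor that also rose, has no match in this window. Capitals mark a match to TTTGGCGC or TTTCCCGC, forms of the E2F site, searched on both strands.
MCM3: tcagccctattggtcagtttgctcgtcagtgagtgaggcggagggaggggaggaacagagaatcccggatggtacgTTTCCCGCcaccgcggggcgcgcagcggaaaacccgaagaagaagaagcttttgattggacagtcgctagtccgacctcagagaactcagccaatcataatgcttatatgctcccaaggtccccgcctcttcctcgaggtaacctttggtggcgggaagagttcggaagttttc
Either form was found for 16 of 40 replication list genes with a promoter (40.0%). The share was 3.68% of tested genes with a promoter and 2.36% of all genes with one.

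**Figure D5:**
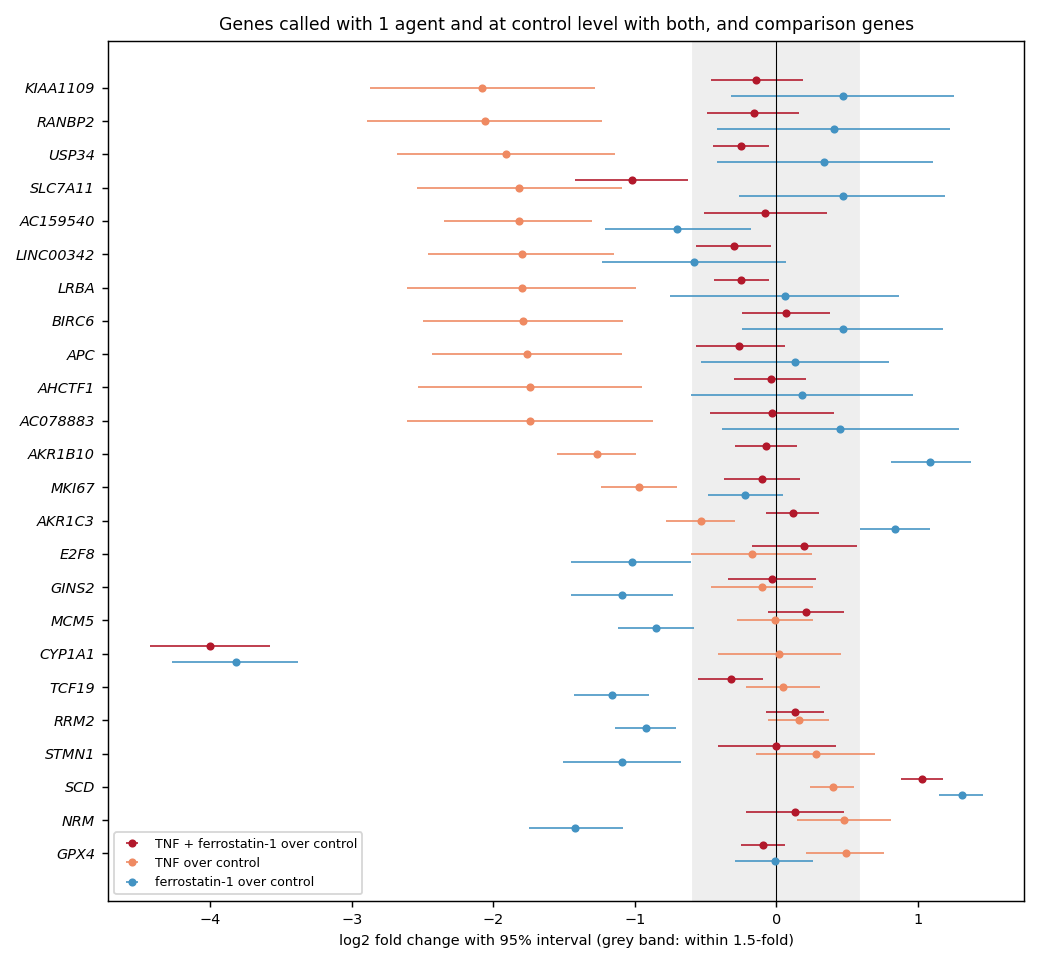
Log2 fold change over control with its 95% interval for TNF plus ferrostatin-1 (red), TNF (orange) and ferrostatin-1 (blue), each against the same 3 control libraries, with a grey band of 1.5-fold. The 16 genes named for being called with a single agent and at control level with both have red intervals inside the band, while SLC7A11, CYP1A1 and SCD lie outside it.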

How the data were processed

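RNA from HT-29 cells was sequenced, and the count table of the study, with raw counts per gene deposited by the authors, was analysed here. The tools listed in the submitters' processing notes were DESeq2, edgeR, StringTie 1.3.4d, HISAT2 2.0.4 and cutadapt 1.9, with no roles stated. Build, annotation and counting strand: not given in the sources used here. Hence overlapping and near-identical genes are uncertain. The deposited FPKM values were not used.

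Counts of the 3 combined-treatment and 3 control libraries were filtered for low counts, leaving 19595 genes, scaled by trimmed mean of M-values (TMM) factors over all 14 libraries, and tested with edgeR 4.0.16's quasi-likelihood test in R 4.3.3, with Benjamini-Hochberg adjustment. CPM values use the same factors. Standard errors and 95% intervals come from this fit. Values for TNF alone, for ferrostatin-1 alone and for direct differences between treatments come from 1 model of 6 groups and 14 libraries over 22216 genes. TNF and ferrostatin-1 libraries are numbered 1 and 3 as in the count columns. The tests were tested on simulated data. PCR reads had no molecular identifiers, so precision covers counting error and the spread between libraries only.

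Genes were named by this rule: the 15 largest rises and 15 largest falls among genes away from control level, with groups that do not overlap and a mean count no lower than 50; up to 4 called genes and 2 genes at control level per list; a set of genes of TNF signalling, ferroptosis and the line; and up to 10 genes called at 2-fold with each single agent but at control level with both. One fall is not reported here. The members and lists were chosen with earlier results of these data known. Same-numbered libraries did not deviate together (correlations of 0.047, -0.02 and 0.046), so no pairing was used. Alternatives were other scalings, filters, models and bands, DESeq2 1.42.0, and leaving out each library.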

Additional observations from a re-analysis of the deposited data

Results flagged for a closer look

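One gene of 22216 was called in a test of whether ferrostatin-1 acted differently with and without TNF, made in the model of 14 libraries with edgeR's quasi-likelihood test. WDR76, a WD-repeat protein, had 34.7, 35.4 and 34.7 CPM in TNF plus ferrostatin-1, 22.5 and 26.6 CPM in TNF, 11.6 and 13.3 CPM in ferrostatin-1, and 25.8, 30.2 and 24.5 CPM in the control. The difference between the 2 effects of ferrostatin-1 was 1.62 ± 0.18 on the log2 scale (SE, adjusted p = 0.03). Of the 22216 genes, 4239 had an unadjusted p below 0.05 in this test, and WDR76 alone was called after adjustment. The count of 4239 is not corrected for the number of tests. It rests on 2 libraries per single agent, which differed from each other in some genes.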

How the results depend on the processing

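The number of genes called was 4327 with relative log expression scaling, 4342 with factors over the 6 libraries, 3354 without a filter, 4427 with a stricter filter, 5252 with DESeq2 and 3113 in the model of 14 libraries. Leaving out 1 library gave 2402 to 6151 called genes, 1129 to 2941 higher and 1273 to 3210 lower, the extremes being without control library 1 and without control library 2. Genes away from control level then numbered 944 to 1459, with 484 to 862 higher and 414 to 597 lower, and genes at control level 7145 to 7819. A narrower band in place of 1.5-fold left 2924 genes at control level, and a 2-fold band 11949. Library numbers did not pair the samples, and a fit with the replicate number as a block called 3717 genes. Leaving out the 26 genes that separate libraries across treatments, a choice made after seeing the data, left 4298 called genes. None of the 171 named genes that were called reversed its direction under the alternatives run. Genes near 0 did change sign without a call: without control library 2, BIRC6 was at -0.05, CASP8 at -0.01, TNFRSF21 at -0.02 and GINS2 at 0.10. Depth limits the weak genes: the 8297 genes that could not be placed had a median of 0.61 CPM.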
